A study of Mus musculus with 6 samples.

Results

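The genes described here encode the integrins and the laminin and nidogen proteins of the basement membrane, measured in mouse embryonic fibroblasts (MEFs). Members were taken by symbol from the deposited table: every integrin alpha and beta subunit, every laminin chain, both nidogens, and perlecan (Hspg2). This gave 40 of the 18872 genes of the table. Of these, 34 had a mean normalized count of at least 10 over the 6 libraries and were tested, and 6 fell below it. A normalized count is the number of reads of a gene scaled by a factor for library size.

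RNA sequencing was done on 6 libraries, of which 3 carry the label SARAF-KO and 3 the label SARAF-WT, from untreated primary MEFs of B6 background grown out of the trunks of E14.5 embryos (embryonic day) to 75% confluency. The paper describes both genotypes as homozygous for a floxed Saraf allele, from which Cre removes an exon. The SARAF-KO mice also carry Cre under the ubiquitous PGK promoter, and the SARAF-WT littermates lack Cre, although the labels call them wild type. The methods describe 1 embryo per dish, but the labels do not tie libraries to embryos, so the p-values given here measure only the spread between these libraries, which may be technical.

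The reads of all genes, recovered from the normalized counts, summed to 32799080 to 37979662 in the SARAF-KO-labelled libraries and 24595137 to 32228588 in the SARAF-WT-labelled ones. Saraf, the targeted gene, ran against the labels: its normalized count was 4631, 4476 and 4384 in the SARAF-KO-labelled libraries and 3268, 3409 and 3306 in the SARAF-WT-labelled ones. The count covers all exons of the gene and cannot show the deleted exon by itself. Every direction below therefore holds by label only. Fibroblast markers were abundant in every library, with summed normalized counts of 196317 to 199232 in the SARAF-KO-labelled libraries and 239986 to 244696 in the SARAF-WT-labelled ones, and 5 of the 6 were lower in the former. All 4 smooth muscle markers were lower too (4449 to 5171 against 12477 to 16343 in sum). By contrast, 3 of the 4 mesothelial markers were higher (4864 to 5292 against 1648 to 1721 in sum, mostly Msln). In bulk RNA, fewer cells of a type and less RNA per cell cannot be told apart. Of the libraries within a group, SARAF-WT replicate 1 stood farthest from its fellows (chi-square per degree of freedom of 3.13 and 3.99, against 1.53 to 1.97 for the other within-group pairs and at least 39.3 between groups).

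Laminins are secreted as trimers of an alpha, a beta and a gamma chain, and assemble into sheets at the cell surface. Nidogens bind laminin and link its sheet to the collagen IV network, and perlecan is a large heparan sulfate proteoglycan of the same layer. Integrins are receptors of an alpha and a beta subunit that bind matrix outside the cell and couple it to actin inside. The alpha subunit largely sets the ligand: some subunits bind collagen, some laminin, and some the RGD motif of fibronectin and vitronectin. Fibroblasts use them to attach, spread and pull on the matrix that they lay down.

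Of the 34 members tested, 26 (76.5%) passed the test, 10 of them higher and 16 lower in the SARAF-KO-labelled libraries. Of all 13986 genes tested, 56.2% passed (28.2% higher, 28.0% lower), which is the background for every count that follows. Passing means a Benjamini-Hochberg adjusted p under 0.05 over all genes tested, from limma fitted to log2(normalized count + 1). The log2 changes are SARAF-KO-labelled minus SARAF-WT-labelled libraries on that scale, which understates the change of low genes. The median size of the log2 change was 0.38 over the members and 0.16 over all genes, while the median signed change was -0.11. A change of at least 1 on the log2 scale was reached by 7 members, Lama2 upward and Lama1, Itga8, Itgb3, Itga1, Itga11 and Nid2 downward, and by 4.69% of all genes tested (2.04% upward, 2.65% downward). In 28 of the 34 members the 3 libraries of one label lay apart from the 3 of the other, as in 61.4% of all genes tested. The member genes took up 0.517 to 0.529% of the reads in the SARAF-KO-labelled libraries and 0.612 to 0.615% in the SARAF-WT-labelled ones.

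**Figure D1:**
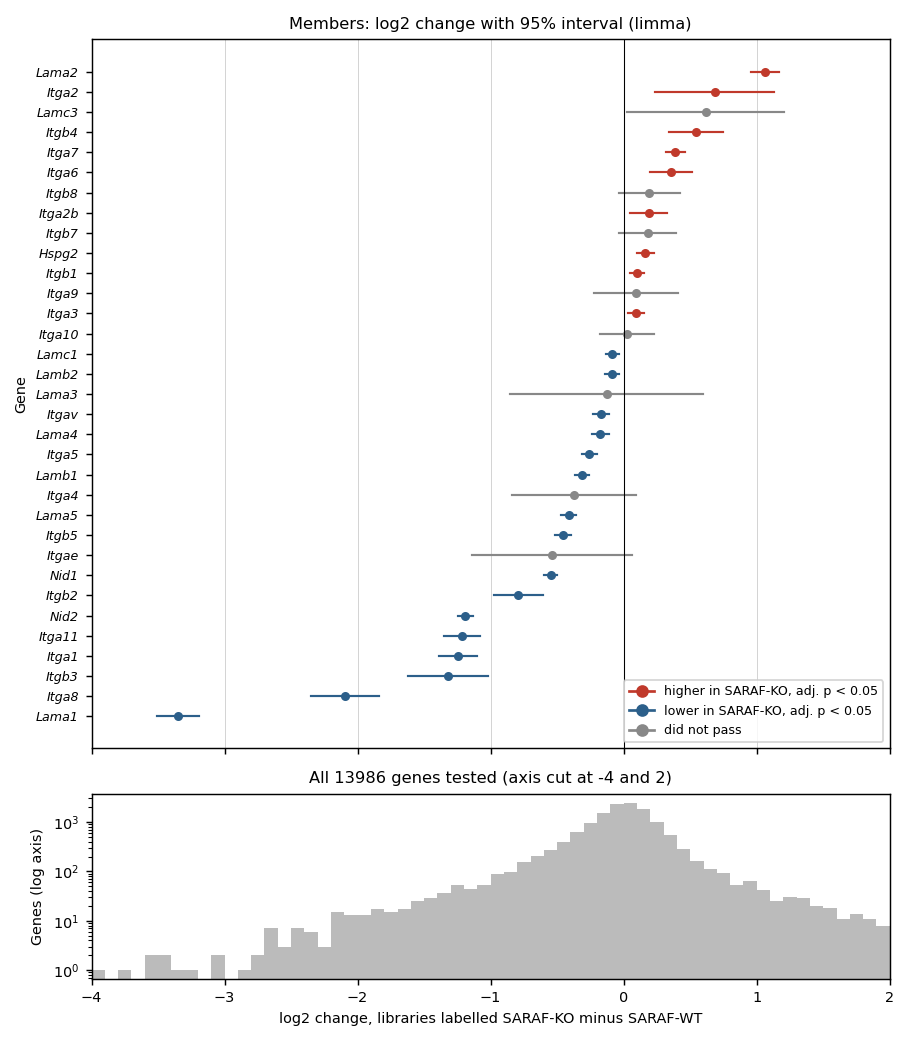
Log2 change of the tested member genes described in the text, SARAF-KO-labelled minus SARAF-WT-labelled libraries, with bars for the 95% confidence interval of the limma fit (n = 3 libraries a group) and colours for the call at an adjusted p of 0.05, above a histogram of the same change over all 13986 genes tested with a log axis for the number of genes. Lama1 lies farthest down at -3.35 and Lama2 farthest up at 1.06.

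Shown first are the promoters of a few members that moved far or in opposite directions, since the results below return to them. Lama1, which moved the most, had no promoter in the RefSeq table used, and neither had Itgb3 or Nid2. Itga1 and Itga2 encode collagen-binding integrin subunits and lie side by side on chromosome 13, Itga11 encodes a further collagen-binding subunit, Itga8 is the integrin that fell most, and Lama2 is the member that rose most. Each runs from 250 bases before to 50 bases after the annotated start, 5′ to 3′ on the strand of the gene, from RefSeq on GRCm38.p6, and capitals mark every CpG dinucleotide. The RefSeq start of Lama2 lies inside the longer span that GENCODE gives the gene.
Itga8, chr2:12301895-12302194, minus strand: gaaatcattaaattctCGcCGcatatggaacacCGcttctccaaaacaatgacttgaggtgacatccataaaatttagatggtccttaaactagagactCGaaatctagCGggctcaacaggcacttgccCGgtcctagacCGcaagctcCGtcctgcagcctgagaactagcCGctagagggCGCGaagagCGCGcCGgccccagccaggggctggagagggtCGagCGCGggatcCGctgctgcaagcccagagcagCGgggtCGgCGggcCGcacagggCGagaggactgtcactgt
Itga1, chr13:115101915-115102214, minus strand: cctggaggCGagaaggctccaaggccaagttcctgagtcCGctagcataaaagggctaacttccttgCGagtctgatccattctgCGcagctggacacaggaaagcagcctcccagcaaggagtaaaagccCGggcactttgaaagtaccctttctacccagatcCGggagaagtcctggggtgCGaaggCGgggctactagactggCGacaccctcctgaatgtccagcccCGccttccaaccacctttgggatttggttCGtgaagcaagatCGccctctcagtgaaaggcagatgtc
Itga2, chr13:114932051-114932350, minus strand: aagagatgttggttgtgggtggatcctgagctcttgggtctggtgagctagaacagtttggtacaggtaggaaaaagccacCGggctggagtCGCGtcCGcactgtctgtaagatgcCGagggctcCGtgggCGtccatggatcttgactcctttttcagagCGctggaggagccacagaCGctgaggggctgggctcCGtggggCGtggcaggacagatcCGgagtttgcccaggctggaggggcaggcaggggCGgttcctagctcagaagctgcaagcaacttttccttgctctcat
Itga11, chr9:62677605-62677904, plus strand: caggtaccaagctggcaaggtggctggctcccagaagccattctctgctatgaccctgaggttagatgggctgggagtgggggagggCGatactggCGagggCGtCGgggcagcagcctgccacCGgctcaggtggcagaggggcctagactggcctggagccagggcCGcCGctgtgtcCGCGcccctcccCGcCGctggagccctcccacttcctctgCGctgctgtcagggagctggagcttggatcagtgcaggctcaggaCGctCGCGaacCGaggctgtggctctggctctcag
Lama2, chr10:27616893-27617192, minus strand: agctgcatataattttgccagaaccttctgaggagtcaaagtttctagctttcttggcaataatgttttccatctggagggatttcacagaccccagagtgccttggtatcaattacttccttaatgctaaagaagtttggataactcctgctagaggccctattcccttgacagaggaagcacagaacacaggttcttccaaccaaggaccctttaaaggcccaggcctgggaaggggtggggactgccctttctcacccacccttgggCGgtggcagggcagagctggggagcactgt

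The Itga8 promoter held 23 CpG in these 300 bases, Itga11 held 16, Itga2 held 13, Itga1 held 12 and Lama2 held 1, with a median of 7 over the promoters of 27025 genes. For Itga8 the CpG count was 0.88 of that expected from its base composition, and 14.3% of all promoters reached that ratio. Members not shown held as many: Hspg2 and Itgb1, which rose, had 27 CpG each, and Itgav and Lama5, which fell, had 24 each. A link between CpG and the change of a member was not tested. For Lama2 the ratio was 0.05, and 6.57% of all promoters were as low. Its window ends at 27617192, inside the GENCODE span that reaches 27619758. The Lama2 values therefore describe that RefSeq start and not the 5′ end of the longer span. Itga2, which rose, and its neighbour Itga1, which fell, had nearly the same number of CpG. Searched on both strands, the letters GGGCGG, the core of a site for SP1, stood once each in the Itga2 and Lama2 windows and in none of the other 3, and 35.9% of all promoters hold them. TGANTCA, an AP-1 site, and GGAATG, a TEAD site, were in none of the 5 windows and are in 7.93% and 14.6% of all promoters. A promoter of 25 of the 40 members was in the RefSeq table used.

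Among the laminin alpha chains, the SARAF-KO-labelled libraries held far less Lama1 and more Lama2. Lama1 encodes the alpha chain of the laminin of the early embryo and of many epithelial basement membranes, and spans chr17:67697259-67822647 on GRCm38 with 63 exons in its main transcript. Its normalized counts were 79.0, 83.1 and 78.9 in the SARAF-KO-labelled libraries and 862, 811 and 815 in the SARAF-WT-labelled ones. The groups lay 10.3-fold apart with little spread inside either (log2 change -3.35 ± 0.08 (SE), adjusted p = 1.9e-21). Lama2 encodes the alpha chain of muscle and peripheral nerve basement membranes, whose loss causes a congenital muscular dystrophy, and lies at chr10:26980036-27619758 with 65 exons. Its counts were 1196, 1274 and 1290 against 634, 549 and 617. Lama2 rose with no overlap between the labels (log2 change 1.06 ± 0.05, adjusted p = 8.9e-15).

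Lama5 and Lama4 encode the alpha chains of the laminins found widely in adult basement membranes and around blood vessels, and both fell to a smaller extent. Lama5 counted 10841, 10556 and 10753 against 15014, 13906 and 13912 (log2 change -0.41 ± 0.03, adjusted p = 3.9e-12). For Lama4 the counts were 4291, 4179 and 4257 against 4546, 4987 and 4841 (log2 change -0.17 ± 0.03, adjusted p = 3.4e-05). The lowest library labelled SARAF-WT was above the highest labelled SARAF-KO for both genes. Lama3, the alpha chain of the laminin that anchors skin epithelium, was near the filter at 9.35, 12.9 and 16.8 against 16.2, 20.7 and 7.88, and did not pass (log2 change -0.13, 95% interval -0.85 to 0.60, adjusted p = 0.78).

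Lamb1, Lamb2 and Lamc1 changed by less than Lama1, Lama2 and Lama5, but Lamb1 changed by more than Lama4. Lamb1, a beta chain shared by the early laminins, fell from 12050, 12977 and 12627 in the libraries labelled SARAF-WT to 10106, 9935 and 10228 in those labelled SARAF-KO (log2 change -0.31 ± 0.03, adjusted p = 3.4e-10). Lamb2, the beta chain of the neuromuscular junction and kidney filter, was 11709 ± 190 (SD, n = 3) against 12444 ± 236, and Lamc1, the gamma chain of most laminins, 11686 ± 77.8 against 12410 ± 213. Both passed the test with a log2 change of -0.09 ± 0.02 (adjusted p = 0.0036 and 0.0032), smaller than the change of Lamb1. Lamc3, a minor gamma chain, overlapped between the labels at 20.4, 21.4 and 27.6 against 14.2, 20.7 and 10.5 and did not pass (log2 change 0.62, 95% interval 0.03 to 1.21, adjusted p = 0.069).

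Both nidogens fell, and Nid2 fell further than Nid1. Nid1 (chr13:13437551-13512269, 20 exons) counted 27793, 27564 and 28041 in the SARAF-KO-labelled libraries and 40928, 40977 and 40139 in the SARAF-WT-labelled ones (log2 change -0.55 ± 0.02, adjusted p = 3.1e-16). Nid2 (chr14:19751265-19811787, 21 exons) counted 7932, 7785 and 7701 against 18682, 17300 and 17489 (log2 change -1.19 ± 0.03, adjusted p = 2.4e-21). No library of one label came near those of the other for either gene. Per kilobase of exon, Nid2 stood at 0.351 ± 0.007 (SD, n = 3) of the Nid1 level in the SARAF-KO-labelled libraries and at 0.547 ± 0.022 in the SARAF-WT-labelled ones. Perlecan RNA, from Hspg2, was instead slightly higher at 28549, 28908 and 30650 against 27739, 24986 and 25976 (log2 change 0.16 ± 0.03, adjusted p = 9.6e-05).

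**Figure D2:**
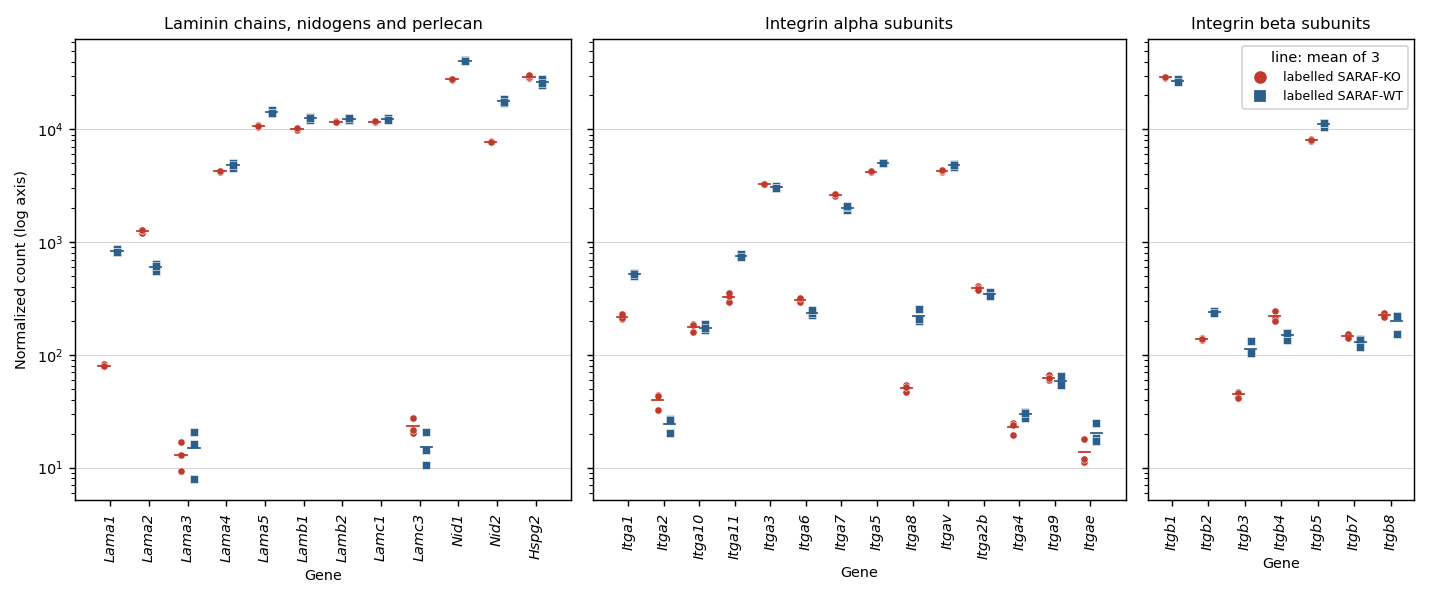
Normalized count of each tested member gene described in the text, in the 3 SARAF-KO-labelled and the 3 SARAF-WT-labelled libraries on a log axis, 1 point per library. For Lama1 the points sit at 78.9 to 83.1 against 811 to 862, whereas those of Lama3 and Itga10 overlap.

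Read per kilobase of exon, the mixture of laminin alpha chains shifted between the labels. Lama5 made up 52.9% of the alpha chain level in the SARAF-KO-labelled libraries and 57.1% in the SARAF-WT-labelled ones, and Lama4 39.4% and 36.1%. Lama2 went from 2.79 ± 0.20% (SD, n = 3) under SARAF-WT to 7.18 ± 0.33% under SARAF-KO, and Lama1 from 3.96 ± 0.09% to 0.47 ± 0.02%. Lama1 thus ranked above Lama2 in all 3 libraries labelled SARAF-WT and below it in all 3 labelled SARAF-KO, with a Lama2 level of 0.70 ± 0.04 and 15.2 ± 0.63 times that of Lama1. The alpha chains summed to 1780 ± 19.3 normalized counts per kilobase against 2196 ± 28.3 and the beta chains to 3808 ± 44.9 against 4359 ± 59.1. Lamb1 was 45.4% and 49.3% of the beta level, with Lamb2 making up nearly all of the rest. Under SARAF-WT the order of Lamb1 and Lamb2 differed between libraries, with a Lamb1 share of 48.1 to 50.7%. It also differed with the main transcript's length in place of the merged exons (49.3 to 51.9%), where the mean order turned (50.5% Lamb1).

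The collagen-binding alpha subunits moved in different directions. Itga1, a collagen IV receptor subunit of mesenchymal and smooth muscle cells, lies at chr13:114953096-115101964 with 29 exons. It counted 210, 212 and 231 in the SARAF-KO-labelled libraries and 527, 504 and 519 in the SARAF-WT-labelled ones (log2 change -1.24 ± 0.07, adjusted p = 9.2e-14). Pelo lies inside the span of Itga1 on the same strand and was slightly higher (log2 change 0.12, adjusted p = 0.022). Whether the exons of Pelo and Itga1 overlap, which would affect the count of Itga1, was not checked. Itga11, the fibrillar collagen receptor subunit of fibroblasts (chr9:62677826-62783982, 30 exons), counted 292, 335 and 352 against 756, 779 and 733. It fell about as far as Itga1 (log2 change -1.21 ± 0.07, adjusted p = 4.8e-14), again with no overlap.

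Itga2, the collagen receptor subunit of platelets and epithelium, was low but higher in the SARAF-KO-labelled libraries, at 44.2, 32.5 and 43.4 against 20.3, 27.0 and 26.3 (log2 change 0.68 ± 0.22, adjusted p = 0.0093). This call rested in part on SARAF-KO replicate 1, without which the log2 change was 0.61 and the adjusted p 0.051. Itga10, the collagen receptor subunit of cartilage, was 178 ± 16.4 (SD, n = 3) against 175 ± 11.5 and did not pass (log2 change 0.02, 95% interval -0.18 to 0.23, adjusted p = 0.85). Per kilobase, Itga1 stood at 3.59 ± 0.59 times the level of Itga2 in the SARAF-KO-labelled libraries and at 13.9 ± 2.56 times in the SARAF-WT-labelled ones. Itga11 stood at 1.88 ± 0.29 and 4.41 ± 0.36 times the level of Itga10. The 2 subunits that fell shared no direction with Itga2, whose start site, seen in the promoters above, lies next to Itga1 on the same strand.

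All 3 laminin-binding alpha subunits were higher in the SARAF-KO-labelled libraries. Itga7, the laminin receptor subunit of muscle, counted 2681, 2558 and 2684 against 1937, 2037 and 2077 (log2 change 0.39 ± 0.03, adjusted p = 5.7e-10). Mettl7b, which overlaps Itga7 on the opposite strand, had a mean of only 13.7, and the library kit does not mark strand. Itga6, whose product pairs with the Itgb1 or the Itgb4 product, counted 301, 292 and 318 against 228, 234 and 248 (log2 change 0.36 ± 0.08, adjusted p = 0.0003). For Itga3, a receptor subunit for the Lama5 and Lama3 laminins, the means were 3278 ± 4.17 and 3075 ± 75.4 (log2 change 0.09 ± 0.03, adjusted p = 0.009). The 3 genes kept apart between the labels in every library, with Itga3 by the least.

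Of the 4 alpha subunits that bind RGD ligands, 3 fell. Itga8, whose product pairs with Itgb1 and binds nephronectin and whose promoter is shown above, lies at chr2:12106632-12301922 with 30 exons. It counted 53.5, 47.1 and 52.3 against 200, 257 and 209 (log2 change -2.09 ± 0.12, adjusted p = 3.6e-13). Npnt, which encodes nephronectin, had a mean of 8637 ± 44.1 against 8409 ± 106 and did not pass (log2 change 0.04, 95% interval -0.01 to 0.09, adjusted p = 0.18). The main fibronectin receptor subunit Itga5 was 4203 ± 33.6 against 5027 ± 30.3 (log2 change -0.26 ± 0.03, adjusted p = 7e-09), and the vitronectin receptor subunit Itgav was 4261 ± 91.6 against 4803 ± 127 (log2 change -0.17 ± 0.03, adjusted p = 1.3e-05). Both moved far less than Itga8. Itga2b, the fibrinogen receptor subunit of platelets, was 407, 396 and 374 against 338, 360 and 335 (log2 change 0.19 ± 0.07, adjusted p = 0.019). Itga2b lost its call with DESeq2 on the recovered reads (adjusted p = 0.074) and in limma when SARAF-KO replicate 1, SARAF-KO replicate 2 or SARAF-WT replicate 3 was left out (adjusted p = 0.089, 0.062 and 0.059), while its log2 change stayed at 0.19, 0.16, 0.18 and 0.17. Smooth muscle cells are a known site of Itga8, Itga1 and Itga7, and all 4 markers of that list were lower in the same libraries (summed 4449 to 5171 against 12477 to 16343), while Itga7 was higher. The part of this difference in the integrin values was not tested.

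Itga4 and Itga9, which bind Vcam1, fibronectin and tenascin, and Itgae, the partner of Itgb7 on intraepithelial lymphocytes, did not pass. Itga4 was 22.7 ± 2.78 against 29.5 ± 1.96 (log2 change -0.37, 95% interval -0.84 to 0.09), Itga9 was 62.8 ± 2.86 against 59.0 ± 5.83 (0.09, -0.22 to 0.41), and Itgae was 13.6 ± 3.69 against 20.1 ± 4.21 (-0.54, -1.14 to 0.07). All 3 intervals include 0 and also, in one direction or the other, a change of the size seen in Itga7. Of the 14 alpha subunits tested, 5 rose, 5 fell and 4 did not pass.

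Among the beta subunits, Itgb1 was slightly higher and Itgb5 lower. Itgb1, the partner of most alpha subunits in fibroblasts, counted 28472, 29165 and 29434 against 26785, 27918 and 26480 (log2 change 0.10 ± 0.02, adjusted p = 0.0013). Itgb5 and Itgb3 encode partners of Itgav in vitronectin binding. Itgb5 counted 8259, 7926 and 8020 against 10530, 11298 and 11469 (log2 change -0.46 ± 0.03, adjusted p = 1.2e-12). Itgb3, at chr11:104608000-104670476 with 15 exons, counted 46.7, 45.4 and 41.4 against 104, 104 and 131 (log2 change -1.32 ± 0.15, adjusted p = 3.4e-08). The vitronectin receptor genes Itgav, Itgb5 and Itgb3 thus all fell, by unequal amounts. Per kilobase, Itgb1 was 74.9 ± 0.70% (SD, n = 3) of the beta level in the SARAF-KO-labelled libraries and 67.2 ± 1.07% in the SARAF-WT-labelled ones, and Itgb5 23.4 ± 0.65% and 31.0 ± 1.05%.

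The alpha level was likewise spread over few genes. Per kilobase, Itga5 was 30.4% of it in the SARAF-KO-labelled libraries and 34.3% in the SARAF-WT-labelled ones, Itgav 19.1% and 20.3%, Itga3 19.7% and 17.5%, and Itga7 20.2% (19.7 to 20.5% over the libraries) and 14.1 to 14.9%. Itga7 therefore ranked below Itgav and Itga3 in every library labelled SARAF-WT. In those labelled SARAF-KO its range lay just above that of Itgav (18.7 to 19.3%) and overlapped that of Itga3. The order against Itga3 depended on the length used. With the main transcript's length, Itga7 was below Itga3 in every SARAF-KO-labelled library (means of 20.4% and 20.9%) but still above Itgav (18.7%). The summed alpha level was 3159 ± 35.8 normalized counts per kilobase under SARAF-KO and 3348 ± 26.0 under SARAF-WT, and the summed beta level 10159 ± 85.4 and 10563 ± 270.

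Itgb4, the laminin receptor subunit of hemidesmosomes that pairs only with Itga6, was higher at 245, 212 and 200 against 136, 157 and 156 (log2 change 0.54 ± 0.10, adjusted p = 4.9e-05). With Itga6 it anchors epithelium to its basement membrane, and both were higher in the SARAF-KO-labelled libraries. Of the chains of the laminin that this receptor binds in skin, Lama3 did not pass and Lamb3 had 2, 4 and 4 reads against 0, 1 and 0. Of the epithelial markers, Cdh1 and Krt5 were at or under 3.94 normalized counts in every library and Epcam reached 11.4. The summed epithelial list was lower in the SARAF-KO-labelled libraries (30.6 to 42.8 against 81.0 to 105), mostly through Krt18. The mesothelial list moved the same way as Itga6 and Itgb4 in sum (4864 to 5292 against 1648 to 1721), mostly through Msln (log2 change 1.65). The log2 change was 1.09 for the keratin Krt19 and 0.68 for Wt1, and Upk3b had at most 5.06 normalized counts in any library. The part of either list in the result was not tested.

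Itgb2, the beta subunit of leukocyte integrins, was lower at 141, 135 and 138 against 240, 246 and 234 (log2 change -0.79 ± 0.09, adjusted p = 4e-08). Its alpha partners Itgal, Itgam, Itgax and Itgad were all under the mean of 10, with 0 to 10 reads per library. Ptprc, which marks all leukocytes, had at most 1 read in any library, and the summed leukocyte markers were slightly higher in the SARAF-KO-labelled libraries (491 to 521 against 429 to 455). Cd68 made up most of that sum, and Cd53 and Csf1r were the markers that rose. Their part in the result was not tested. Itgb7, a further lymphocyte subunit, was 147 ± 5.24 against 130 ± 10.5 and did not pass (log2 change 0.18, 95% interval -0.04 to 0.40, adjusted p = 0.15). Itgb8, a subunit that activates latent TGF-beta with Itgav, counted 221, 234 and 216 against 153, 223 and 219 and did not pass (log2 change 0.19, 95% interval -0.04 to 0.42, adjusted p = 0.15). The single low value of SARAF-WT replicate 1 set the size of that difference, which was 0.02 without it. Itgb6, an epithelial subunit, had 10, 15 and 13 reads against 6, 7 and 6. The 6 members below the mean of 10 had 0 to 15 reads per library and are not read further.

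**Figure D3:**
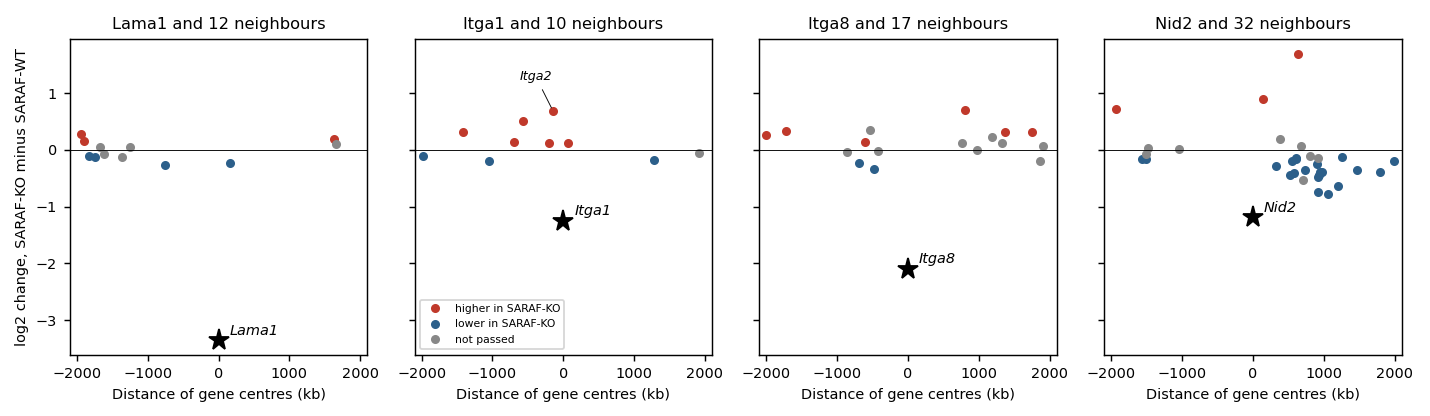
Log2 change of the tested genes within 2 Mb of Lama1, Itga1, Itga8 and Nid2 against the distance between gene centres in kb, with the named gene as a star at 0 and colours for higher, lower and not passed in the SARAF-KO-labelled libraries. Lama1, Itga1 and Itga8 lie far below their neighbours, Itga1 and Itga2 lie on opposite sides of 0, and 21 of the 32 genes around Nid2 were lower.

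The genes around the members were read for changes in the same direction as the member. None of the 12 tested neighbours of Lama1 within 2 Mb was as low as Lama1, and their median log2 change was -0.02. Likewise no neighbour reached the change of Itga8 (17 neighbours), Itga11 (26), Itgb3 (46) or Lama2 (5) in the same direction. Each of these members changed by at least 1, as did only 2.65% of all genes downward and 2.04% upward. Few neighbours could thus be expected to reach them in any case. For Nid2, 21 of 32 neighbours were lower, with a median of -0.19, and none was as low as Nid2. That stretch lies on chromosome 14, where 63.1% of 455 tested genes were lower (median -0.27), against 26.8% on the other chromosomes together. Around Lama5, 23 of 42 neighbours were lower (median -0.15), and 5 were as low as Lama5. Around Itgav, 12 of 21 were lower (median -0.12), and 10 were as low as Itgav. The lower counts of Nid2, Lama5 and Itgav thus stand among neighbours that were mostly lower, and those of Lama1, Itga8, Itga1, Itga11 and Itgb3 do not. Itga1 and Itga2, with their centres 145 kb apart, moved in opposite directions.

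Other genes of the same structures were read from 4 lists. Of 20 tested basement membrane genes other than the members, 9 rose and 9 fell. Egfl6, a matrix protein bound by the Itga8 integrin, was 108 ± 7.05 against 1051 ± 113 (log2 change -3.27 ± 0.08, adjusted p = 6.2e-21), a fall similar in size to that of Lama1. Agrn, a heparan sulfate proteoglycan that binds laminin, fell too (5224 ± 47.5 against 8985 ± 301, log2 change -0.78). The collagen IV chain Col4a1 (7526 ± 74.7 against 5117 ± 85.5, log2 change 0.56) and the matricellular Smoc1 (4249 ± 89.2 against 1776 ± 45.8, log2 change 1.26) rose, Col4a1 in the opposite direction to the nidogens that link to its network. Npnt and Tinagl1 (log2 change -0.04, 95% interval -0.11 to 0.04) did not pass.

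Of 28 tested cytoplasmic partners of integrins, 8 rose, 12 fell and 8 did not pass. Those with the smallest p all fell: Fermt2, an activator of integrins (2460 ± 36.5 against 4001 ± 59.6, log2 change -0.70), Tns1, a link to actin (2641 ± 66.2 against 4554 ± 15.4, -0.79), Vcl, which strengthens that link (4635 ± 61.7 against 7176 ± 463, -0.63), and Lims2, a partner of Ilk (66.8 ± 6.19 against 272 ± 34.6, -2.01). Vcl is itself a neighbour of Nid2, 1200 kb away. The abundant Actn4 (0.05, 95% interval -0.01 to 0.12) and Dab2 (0.01, -0.04 to 0.06) did not pass.

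Of 21 tested integrin ligands other than laminins and collagens, 17 fell and 3 rose. Vcam1, the ligand of Itga4, was 4961 ± 92.7 against 8793 ± 345 (log2 change -0.82), Tgfb3, whose latent form Itgav integrins bind, 1888 ± 30.6 against 3513 ± 93.6 (-0.90), and Fbn1, an RGD microfibril protein, 6178 ± 132 against 8663 ± 96.7 (-0.49). Its paralog Fbn2 rose (5417 ± 237 against 2929 ± 97.2, 0.89). The remaining list holds integrin-associated tetraspanins and other receptors of laminin and collagen. Of its 22 tested genes 9 rose and 11 fell, among them Cd9 (5053 ± 128 against 3422 ± 8.52, 0.56) and the hyaluronan receptor Cd44 (7024 ± 348 against 5457 ± 224, 0.36) upward, and the collagen receptor Ddr2 (7702 ± 38.3 against 9659 ± 154, -0.33) and the syndecan Sdc3 (3684 ± 54.9 against 5231 ± 15.4, -0.51) downward. Sdc4 and Sspn did not pass, at log2 changes of 0.04 (95% interval -0.01 to 0.09) and -0.06 (-0.20 to 0.08). The share that passed was 90% of the basement membrane list, 71.4% of the cytoplasmic partners, 95.2% of the ligands and 90.9% of the other receptors, beside the 56.2% of all genes tested, and no test was run over any list. Many of these genes are abundant, and abundant genes can pass at small changes, as Tln1 did at -0.07 with means of 19234 and 20132. Neither these shares nor that of the members were compared with genes of like abundance.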

How the data were processed

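RNA of 6 libraries, 3 with the label SARAF-KO and 3 with the label SARAF-WT, was sequenced by the authors (TruSeq RNA v2, which does not mark strand), mapped with TopHat2 2.0.10 to GRCm38, counted per gene with HTSeq and tested with DESeq2. The sources used here state neither the HTSeq settings nor the DESeq2 version. The deposited values used are normalized counts, a signal value: the read count divided by a size factor. The authors' own mean, log2 fold change, score, p-value and adjusted p-value columns were not used.

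Values were 100% whole multiples (tolerance 1e-06) of the smallest positive value in each library, which gave whole reads for the alternatives. The main test was limma 3.58.1 (R 4.3.3, trended variance, two-sided) on log2(normalized count + 1). Genes had to reach a mean of 10, which left 13986, and p-values were adjusted over these by Benjamini-Hochberg and called under 0.05. It was tested on simulated data. Alternatives were edgeR 4.0.16 and DESeq2 1.42.0 on the recovered reads, other pseudocounts, filters, scaling and thresholds, a replicate block, and leaving out each library. Positions and exon lengths came from GENCODE release M21 on GRCm38, which holds all 40 members, and promoters from RefSeq on GRCm38.p6. No library was a copy of another by chi-square.

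The members and lists were chosen with earlier results of these data known. Every tested member is described except 1 that is not reported here, and from each list the 4 genes with the smallest p and the up to 2 most abundant that did not pass are named. Depth was 24595137 to 37979662 recovered reads a library, counted over the genes of the deposited values.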

Additional observations from a re-analysis of the deposited data

How the results depend on the processing

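Of 503 comparisons of a tested member with an alternative, 491 kept the direction and the side of the threshold, and 28 of the 34 members did so under every alternative run for them, among them 24 of the 26 that passed. Besides Itga2 and Itga2b, described with their values above, Lamc3 (0.86, adjusted p = 0.022) and Itgb8 (0.29, adjusted p = 0.048) passed in limma without SARAF-WT replicate 2. When 1 library was left out, the sign of Itga10 and Lama3, neither of which passed, also turned: Itga10 ranged from -0.022 to 0.10 and Lama3 from -0.50 to 0.14. With a log2 change of at least 1 required as well, 656 of all genes, 7 members, 5 basement membrane genes, 2 adaptors, 2 ligands and 1 of the other receptors were called. Leaving out 1 library gave 6958 to 7899 of all genes, 24 to 28 members, 17 to 19 basement membrane genes, 18 to 21 adaptors, 18 to 20 ligands and 18 to 20 other receptors. EdgeR called 7926 of 14072 genes and 26 members, DESeq2 6807 and 25. Without a filter 27 members passed, with Lamb3 added at 0 to 4 reads per library. Replicate numbers did not pair the libraries (correlations of same-numbered deviations from -0.001 to 0.002), and the replicate block gave 7801 calls over all genes, 26 over the members, and changed no member's call. TMM scaling moved the median of all genes by 0.002. Depth limits what can be said of the members with the lowest counts, such as Itga4, Itgae, Lama3 and Lamc3.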
